A study of Homo sapiens with 33 samples.

Results

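The results below concern 10 genes of a table of 26475 genes counted in 33 RNA sequencing libraries: TMC8, ZNF467, EFNA3, EMP3, LGALS1, IGFBP5, AMER2, SYT3, C19orf57 and MUC19. They were picked from the measured values, as genes lower in base editors than in the Cas9 nickase control whose difference from a GFP control was smaller or went the other way (the values of AMER2 and, with 1 guide, MUC19 went against this, as given below). The differences of editors and nickase from each other and from GFP are therefore given as a description, with no test. All 10 genes passed the filter on low counts, as did 14613 genes in all.

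A base editor joins a Cas9 nickase, an enzyme that cuts a single DNA strand at a site named by a guide RNA, to a deaminase that changes a base. The cells were HEK293T, a human embryonic kidney line. They carried transiently transfected plasmids, with 37.5 µg of editor plasmid that also encodes EGFP and 12.5 µg of guide plasmid, and they were sorted for GFP 36 to 40 h later, so each library reports on sorted cells that express the plasmid. The 11 groups held 3 libraries each. They were nCas9 (the nickase alone), ABEmax and miniABEmax-V82G (adenine base editors), Target-AID (a cytosine base editor) and SpACE (a dual editor of adenines and cytosines, whose columns also carry the name UGI, a uracil glycosylase inhibitor that the sample labels do not mention), each paired once with the HEKsite2 guide and once with the RNF2 guide, and a GFP group that received no guide. The amounts of plasmid stated in the labels were not given separately for the GFP group. GFP differs from nCas9 by the nickase and by the guide together, and the parts of these cannot be told apart. The labels do not say whether the 3 libraries of a group came from separate cultures, so p-values measure only the spread between these libraries, which may be technical.

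The genes belong to unrelated families. TMC8 encodes a membrane protein of the endoplasmic reticulum that works with TMC6 and CIB1 in restricting skin papillomaviruses, and ZNF467 encodes a zinc finger transcription factor. EFNA3 is a membrane-anchored ephrin, a ligand for Eph receptor tyrosine kinases, and EMP3 is a membrane glycoprotein of the PMP22 family. LGALS1 encodes galectin-1, a secreted lectin that binds galactose-containing sugars, and IGFBP5 a secreted protein that binds insulin-like growth factors. AMER2 is a membrane-associated partner of APC, the scaffold of the complex that degrades beta-catenin. SYT3 is a synaptotagmin, a calcium sensor of membrane fusion, C19orf57 (BRME1 in RefSeq) acts with BRCA2 partners in meiotic recombination, and MUC19 is a gel-forming mucin.

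Total counts ran from 6790209 to 11200406 per library. They were highest in GFP replicates 1 and 2, while GFP replicate 3 (9681156) lay below Target-AID HEKsite2 replicates 1 and 2 (9749096 and 9913306). Of 10 marker genes fixed for HEK293 cells, 7 were over 1 CPM (counts scaled to library size) in every group and an eighth in both Target-AID groups, with summed levels of 542 to 765 CPM. Summed liver markers stayed at or below 3.39 CPM and were highest in Target-AID. The erythroid list reached 7440 to 11200 CPM in the 6 Target-AID libraries, through 2 of its 6 genes, and was at most 4.2 CPM elsewhere. Mesenchymal markers summed to 20.6 to 27.5 CPM in GFP and to 10.3 to 18.8 CPM in the other groups. Leukocyte markers summed to 3.29 to 4.35 CPM in the 6 nCas9 libraries and to 1.97 to 2.1 CPM in GFP, with PTPRC at a mean of 0.024 CPM and CD3E at 0.0174 CPM. The part of these lists in the results was not tested. In bulk RNA fewer cells of a type and less RNA per cell cannot be told apart.

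Promoters are shown for 4 of the 5 genes whose 6 nCas9 libraries all stood above the other 27 libraries, as the genes with the most separate nCas9 levels, which restates how they were picked. They come from RefSeq (GRCh38.p14) and run from 250 bases before to 50 bases after the start. RefSeq promoters were matched for 8 of the 10 genes, without TMC8 and LGALS1. Capitals mark the GC box (GGGCGG) and the TATA box (TATAAA), each searched on both strands. The windows are EFNA3 on the plus strand of chr1:155078587-155078886, ZNF467 on the minus strand of chr7:149773539-149773838, EMP3 (the first of 2 entries) on the plus strand of chr19:48325302-48325601 and IGFBP5 on the minus strand of chr2:216695500-216695799.
EFNA3: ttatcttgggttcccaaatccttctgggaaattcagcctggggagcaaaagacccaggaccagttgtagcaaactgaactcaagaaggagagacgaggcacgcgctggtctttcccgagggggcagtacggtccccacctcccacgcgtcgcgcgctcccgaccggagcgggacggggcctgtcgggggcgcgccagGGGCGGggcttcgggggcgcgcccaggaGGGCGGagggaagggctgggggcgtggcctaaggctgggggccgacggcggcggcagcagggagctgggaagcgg
ZNF467: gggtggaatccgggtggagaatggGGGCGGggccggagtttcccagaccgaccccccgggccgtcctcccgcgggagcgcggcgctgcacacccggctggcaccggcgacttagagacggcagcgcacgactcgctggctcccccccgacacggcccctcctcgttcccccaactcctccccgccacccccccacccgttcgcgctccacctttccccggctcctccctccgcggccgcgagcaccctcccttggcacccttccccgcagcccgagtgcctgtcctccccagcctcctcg
EMP3: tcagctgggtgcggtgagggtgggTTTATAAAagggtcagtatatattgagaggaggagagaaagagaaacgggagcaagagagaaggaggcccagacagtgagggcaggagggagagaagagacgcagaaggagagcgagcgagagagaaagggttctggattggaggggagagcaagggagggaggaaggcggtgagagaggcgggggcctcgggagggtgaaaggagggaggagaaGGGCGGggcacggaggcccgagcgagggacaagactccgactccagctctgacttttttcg
IGFBP5: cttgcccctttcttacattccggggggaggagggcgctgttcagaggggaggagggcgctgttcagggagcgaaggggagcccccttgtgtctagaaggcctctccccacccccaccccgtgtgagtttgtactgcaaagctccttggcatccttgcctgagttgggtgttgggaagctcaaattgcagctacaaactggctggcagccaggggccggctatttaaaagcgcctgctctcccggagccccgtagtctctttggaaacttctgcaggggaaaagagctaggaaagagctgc
The EFNA3 window held 2 GC boxes, and those of ZNF467 and EMP3 held 1 each. The IGFBP5 window held none. The 2 TATA box matches of EMP3, on opposite strands, overlap. Taking the first entry of each gene, a GC box stood in 5 of the 8 matched promoters, against 45% of 35116 RefSeq promoters, and a TATA box in 2 of 8 (EMP3 and MUC19), against 11.5%. The letters CCAAT stood in 1 of 8 (EMP3; 34.6% of all), and GAANNTTC and CATTCC in IGFBP5 (6.77% and 14.0% of all). TGACGTCA (1.85%), TGACTCA (4.95%) and CACGTG (7.26%) were in none of the 8 windows. CpG dinucleotides numbered 45 in C19orf57, 33 in ZNF467, 28 in EFNA3, 27 in SYT3, 14 in EMP3, 9 in IGFBP5, 7 in AMER2 and 0 in MUC19, against a median of 14 over all promoters. For SYT3, the first of 3 entries (chr19:50658056-50658355) lies outside the span of the gene given below. The second (chr19:50639832-50640131), next to that span, held 22 CpG and 1 GC box. The windows thus ran from rich in CpG to free of it, and no motif searched was in all of them.

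Levels below are CPM on TMM-scaled library sizes, in the order of replicates 1 to 3. Differences are log2 differences with their standard errors (SE) from a single edgeR fit over all 33 libraries, in which the median gene differed by at most 0.02 in each comparison given here. TMC8 (chr17:78130770-78142968, plus strand, GRCh38) had the widest range from GFP to nCas9. In nCas9 its level was 28.2, 28.0 and 27.2 CPM with the HEKsite2 guide and 26.4, 31.3 and 36.5 CPM with the RNF2 guide. In GFP it was 3.39, 3.48 and 3.42 CPM. All 6 nCas9 libraries stood above every other library, and all 3 GFP libraries below every other. ABEmax came next, at 25.9, 18.6 and 14.8 CPM with HEKsite2 and 12.99, 16.5 and 19.4 CPM with RNF2. The level in miniABEmax-V82G was 16.3, 7.47 and 8.05 CPM with HEKsite2 and 10.2, 12.8 and 14.0 CPM with RNF2. Neighbouring editor groups overlapped in this order, and 1 miniABEmax-V82G library (HEKsite2 replicate 1) lay far above its own group. Target-AID gave 7.92, 6.21 and 6.20 CPM with HEKsite2 and 7.46, 7.09 and 9.35 CPM with RNF2. SpACE gave 10.2, 6.29 and 4.97 CPM with HEKsite2 and 7.15, 9.62 and 9.35 CPM with RNF2. These 4 groups overlapped each other, yet each of their libraries lay above GFP. nCas9 exceeded GFP by 3.01 ± 0.23 (HEKsite2) and 3.19 ± 0.23 (RNF2) on the log2 scale. The difference of the editors from nCas9 of the same guide ran from -0.50 ± 0.18 (ABEmax) to -2.03 ± 0.21 (Target-AID) with HEKsite2 and from -0.94 ± 0.18 (ABEmax) to -1.97 ± 0.20 (Target-AID) with RNF2. Against GFP the same groups were higher by 0.98 ± 0.29 (Target-AID) to 2.51 ± 0.25 (ABEmax) and by 1.21 ± 0.28 (Target-AID) to 2.24 ± 0.25 (ABEmax), so for TMC8 the sign turned in every editor. Without miniABEmax-V82G HEKsite2 replicate 1 the difference of that group from nCas9 was -1.84 in place of -1.39, and that of ABEmax was -0.74 without its replicate 1 and -0.32 without its replicate 3.

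ZNF467 (chr7:149764182-149773479, minus strand) had nearly the same order of groups. Its level in nCas9 was 16.0, 15.8 and 16.6 CPM with HEKsite2 and 10.6, 12.5 and 13.7 CPM with RNF2, and in GFP 2.99, 2.63 and 1.88 CPM. Every nCas9 library was above every other library, and the HEKsite2 libraries of nCas9 did not overlap those with RNF2. ABEmax gave 8.04, 10.2 and 7.80 CPM with HEKsite2 and 6.37, 6.52 and 6.55 CPM with RNF2, and miniABEmax-V82G 4.82, 6.94 and 7.25 CPM and 5.33, 6.14 and 5.71 CPM. Target-AID gave 3.29, 3.88 and 2.73 CPM and 2.88, 3.81 and 3.87 CPM, and SpACE 2.76, 4.88 and 4.41 CPM and 3.95, 4.75 and 2.13 CPM. Target-AID and SpACE overlapped GFP, whereas both adenine editors were above it in every library. nCas9 was above GFP by 2.67 ± 0.19 (HEKsite2) and 2.27 ± 0.20 (RNF2). SpACE was below nCas9 by -2.00 ± 0.18 and -1.74 ± 0.19, and above GFP by 0.68 ± 0.24 and 0.53 ± 0.25, with HEKsite2 and RNF2 respectively.

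**Figure D1:**
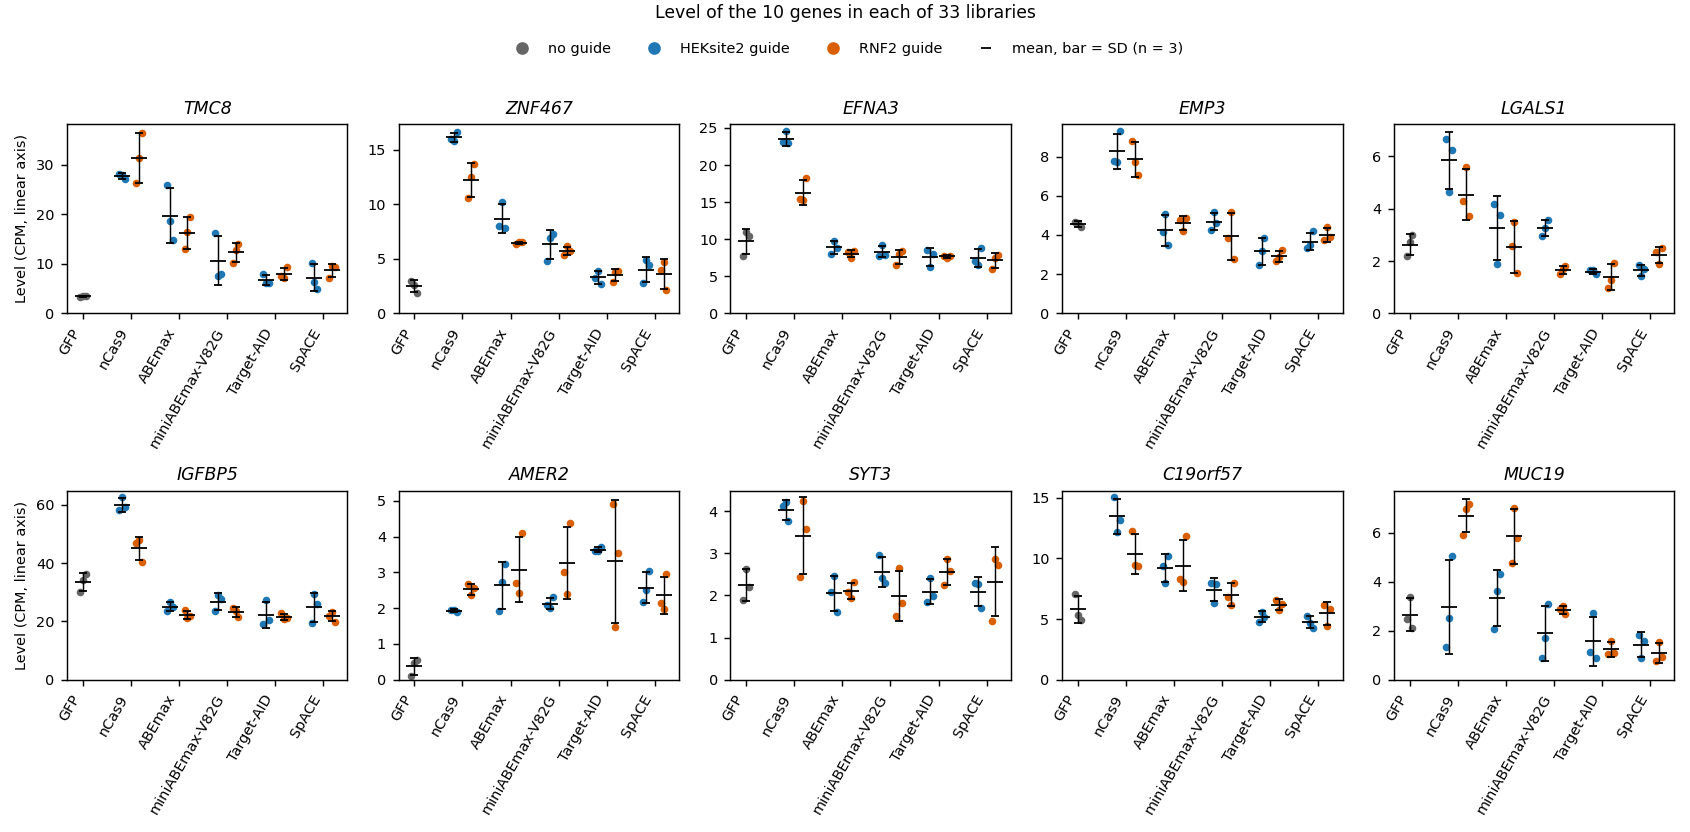
Levels of the 10 genes in CPM (linear axes, a separate range for each gene) in the 33 libraries, by construct on the horizontal axis and by guide in colour, where each point is a library and the black bars are the mean and SD of 3. TMC8 and ZNF467 step down from nCas9 through the adenine editors to GFP, EFNA3 stands apart in nCas9, IGFBP5 forms separate ranges in nCas9, GFP and the editors, and AMER2 is lowest in GFP, at 0.0996 to 0.552 CPM.

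EFNA3 (chr1:155078872-155087538, plus strand) was high in nCas9, and all other groups overlapped at a lower level. In nCas9 it was 23.0, 24.5 and 22.9 CPM with HEKsite2 and 15.4, 15.2 and 18.2 CPM with RNF2. GFP gave 7.77, 11 and 10.4 CPM, and the 8 editor groups had means from 7.14 to 8.91 CPM. The 6 nCas9 libraries did not overlap the other 27, and GFP overlapped the editors. The lowest editor library was SpACE with RNF2 (5.97 CPM) and the highest ABEmax with HEKsite2 (9.81 CPM). nCas9 was above GFP by 1.27 ± 0.12 (HEKsite2) and 0.74 ± 0.13 (RNF2). The editors differed from nCas9 by -1.40 to -1.65 with HEKsite2 and by -1.01 to -1.19 with RNF2, and from GFP by only -0.12 to -0.38 and -0.27 to -0.45.

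IGFBP5 (chr2:216672105-216695525, minus strand) had the same shape, with GFP between nCas9 and the editors. Its level was 58.1, 62.5 and 59.0 CPM in nCas9 with HEKsite2, 47.0, 47.8 and 40.5 CPM in nCas9 with RNF2, and 30.2, 34.3 and 36.2 CPM in GFP. The editor libraries ran from 19.02 CPM (Target-AID, HEKsite2) to 29.3 CPM (SpACE, HEKsite2), all below GFP. Thus nCas9, GFP and the editors formed 3 ranges with no overlap. nCas9 was above GFP by 0.83 ± 0.10 and 0.43 ± 0.10 for HEKsite2 and RNF2, and the editors were below GFP by -0.33 ± 0.11 (miniABEmax-V82G, HEKsite2) to -0.63 ± 0.11 (Target-AID, RNF2). Across the 11 group means of log2 CPM, EFNA3 and IGFBP5 had a Pearson correlation of 0.97, and TMC8 and ZNF467 one of 0.95, while TMC8 and IGFBP5 had 0.52. These values describe group means that share the 6 nCas9 libraries. The deviations from group means over the 33 libraries correlated at -0.32 for TMC8 and ZNF467 and at -0.13 for EFNA3 and IGFBP5. Over all pairs of the genes they ran from -0.62 (TMC8 and IGFBP5) to 0.48 (TMC8 and SYT3).

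EMP3 (chr19:48321509-48330553, plus strand) was 7.76, 7.71 and 9.29 CPM in nCas9 with HEKsite2 and 8.81, 7.73 and 7.05 CPM with RNF2, and 4.68, 4.61 and 4.41 CPM in GFP. All 6 nCas9 libraries were above the other 27. The editor groups had means from 2.92 CPM (Target-AID, RNF2) to 4.68 CPM (miniABEmax-V82G, HEKsite2), and only Target-AID lay below GFP in every library of both guides. nCas9 was above GFP by 0.86 ± 0.17 and 0.78 ± 0.17, and Target-AID was below GFP by -0.54 ± 0.19 and -0.65 ± 0.20, for HEKsite2 and RNF2. LGALS1 (chr22:37675608-37679806, plus strand) was 6.67, 4.63 and 6.23 CPM in nCas9 with HEKsite2, 4.29, 5.61 and 3.71 CPM with RNF2, and 2.19, 2.73 and 2.98 CPM in GFP. Each nCas9 group was above the editors of its own guide, but an ABEmax library with HEKsite2 (4.17 CPM) exceeded the lowest nCas9 library with RNF2. Counts for LGALS1 were as low as 9 in a Target-AID library, so each of its levels is less precise than those of the genes above. nCas9 was above GFP by 1.16 ± 0.23 and 0.79 ± 0.24, and SpACE below nCas9 by -1.83 ± 0.26 and -1.02 ± 0.25, for HEKsite2 and RNF2.

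C19orf57 (chr19:13882348-13906452, minus strand) was 15.04, 12.2 and 13.2 CPM in nCas9 with HEKsite2 and 12.3, 9.48 and 9.35 CPM with RNF2. In GFP it was 7.07, 5.36 and 4.97 CPM. The RNF2 libraries of nCas9 overlapped ABEmax (8.33, 8.09 and 11.8 CPM with RNF2), and the ABEmax libraries of both guides were above GFP. SpACE gave 5.29, 4.67 and 4.29 CPM with HEKsite2 and 6.19, 4.42 and 5.80 CPM with RNF2, within or below the range of GFP. nCas9 exceeded GFP by 1.21 ± 0.16 (HEKsite2) and 0.84 ± 0.16 (RNF2), and SpACE was below nCas9 by -1.51 ± 0.17 and -0.93 ± 0.17. SYT3 (chr19:50621307-50639827, minus strand) was 4.12, 4.21 and 3.76 CPM in nCas9 with HEKsite2, 2.44, 4.24 and 3.59 CPM with RNF2, and 1.89, 2.63 and 2.21 CPM in GFP. Its nCas9 libraries with HEKsite2 were above all editors and GFP, whereas with RNF2 replicate 1 lay inside their range. nCas9 was above GFP by 0.83 ± 0.23 (HEKsite2) and 0.59 ± 0.24 (RNF2). The 8 editor groups of SYT3 had means from 1.99 to 2.56 CPM and overlapped GFP.

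For 2 of the genes the values went against the pattern. AMER2 (chr13:25161684-25172288, minus strand) did not peak in nCas9. It had 1, 5 and 5 counts in the GFP libraries (0.0996, 0.47 and 0.552 CPM) and stood above GFP in all 30 other libraries. In nCas9 it was 1.94, 1.96 and 1.88 CPM with HEKsite2 and 2.67, 2.37 and 2.56 CPM with RNF2. The editor means ran from 2.13 to 3.64 CPM, highest in Target-AID with HEKsite2 (3.60, 3.59 and 3.72 CPM). The editors differed from nCas9 by between -0.11 ± 0.31 (SpACE, RNF2) and 0.91 ± 0.30 (Target-AID, HEKsite2), and 7 of these 8 differences were above 0. Against GFP they were 2.48 ± 0.46 to 3.24 ± 0.41 higher. Without Target-AID RNF2 replicate 1 the difference of that group from nCas9 was -0.02 in place of 0.38.

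MUC19 (chr12:40393395-40570832, plus strand) was highest in nCas9 only with the RNF2 guide, at 5.92, 6.98 and 7.17 CPM, where ABEmax with RNF2 overlapped it at 4.78, 7.00 and 5.78 CPM. With HEKsite2 its nCas9 libraries were spread over 1.33, 2.52 and 5.06 CPM (11, 18 and 43 counts), across GFP at 2.49, 3.38 and 2.10 CPM. nCas9 was above GFP by 0.16 ± 0.35 with HEKsite2 and by 1.31 ± 0.30 with RNF2. Without nCas9 HEKsite2 replicate 3 the first of these turned to -0.50, and SpACE against nCas9 with that guide moved from -1.07 to -0.41, Target-AID from -0.88 to -0.21, miniABEmax-V82G from -0.68 to -0.02 and ABEmax from 0.16 to 0.82. Without Target-AID HEKsite2 replicate 2 or miniABEmax-V82G HEKsite2 replicate 3, these groups differed from nCas9 by -1.56 and -1.21. The HEKsite2 values of MUC19 thus rested on single libraries. With RNF2, Target-AID and SpACE were below nCas9 by -2.41 ± 0.35 and -2.61 ± 0.37, and no left-out library moved these by more than the spread between replicates.

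Counted over the 10 genes, the 6 nCas9 libraries were above all 27 others in 5 (TMC8, ZNF467, EFNA3, EMP3 and IGFBP5), and in 0.602% of all genes tested. With HEKsite2, nCas9 was above all 4 editors in 8 of 10 (5.28% of all genes), and with RNF2 in 6 of 10 (3.41%). It was above GFP in 9 of 10 with either guide (24.6% and 26.1%). These counts restate how the genes were picked. Where the editors lay relative to GFP differed from gene to gene, and differences from GFP also entered the choice of the genes. In both guides, SpACE was above GFP in 2 genes, TMC8 and AMER2 (18.7% of all genes), and below it in 2, IGFBP5 and MUC19 (19%). ABEmax was above GFP in 4 genes, which were TMC8, ZNF467, AMER2 and C19orf57 (21.7%), and below it in 1, IGFBP5 (22%). The count for miniABEmax-V82G was 3 above, TMC8, ZNF467 and AMER2 (18.9%), and 1 below, IGFBP5 (19.3%). Target-AID was above GFP in TMC8 and AMER2 (22.4%) and below it in EMP3, LGALS1 and IGFBP5 (19.3%). For 10 genes, these counts against GFP lie near the shares over all genes and are not a trait of the 10. All editors share the 3 GFP libraries, so these counts are not independent of each other.

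**Figure D2:**
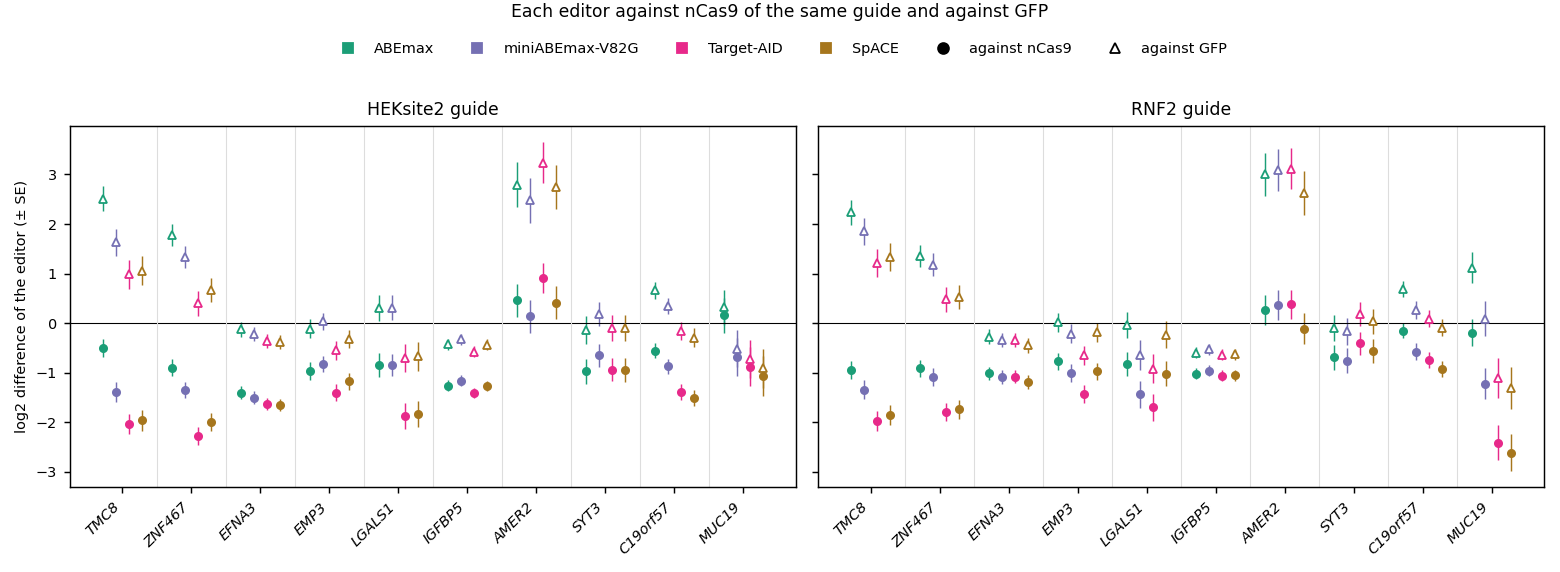
Log2 difference of each editor from nCas9 with the same guide (filled circles) and from GFP (open triangles), with SE, for the 10 genes with the HEKsite2 guide (left) and the RNF2 guide (right). For TMC8 and ZNF467 the circles are below 0 and the triangles above it, for EFNA3 and IGFBP5 both are below 0 with the triangles nearer to it, and for AMER2 the triangles lie from 2.48 to 3.24 and the circles from -0.11 to 0.91.

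Differences between the editors were not themselves used to pick the genes, although the same editor libraries were. Each one also follows from the differences to nCas9 and GFP that were used. The p-values and shares below are therefore not independent of the choice of genes. The editors were compared over the mean of both guides (6 libraries against 6) with edgeR's quasi-likelihood test. It was two-sided, with Benjamini-Hochberg adjustment over all 14613 genes. TMC8 was called in 5 of the 6 pairs of editors, ZNF467 and C19orf57 in 4 each, LGALS1 and MUC19 in 3 each, EMP3 in 2, and EFNA3, IGFBP5, AMER2 and SYT3 in 0. SpACE was lower than ABEmax in 5 of the 10 genes, against 11% of all genes. TMC8 was lower by -1.18 ± 0.16 (adjusted p = 3.92e-07), ZNF467 by -0.97 ± 0.15 (adjusted p = 5.32e-06), C19orf57 by -0.86 ± 0.12 (adjusted p = 1.97e-06) and MUC19 by -1.83 ± 0.28 (adjusted p = 5.74e-06). None of these 4 calls was lost in any alternative, the omission of single libraries included. LGALS1 was lower by -0.59 ± 0.20 (adjusted p = 0.0333). That call was lost with DESeq2 (adjusted p = 0.0607), with only the groups compared in the fit (0.0533), and without ABEmax HEKsite2 replicate 1 or 3, ABEmax RNF2 replicate 1 or 2, SpACE HEKsite2 replicate 2 or 3, or SpACE RNF2 replicate 2 (adjusted p from 0.0538 to 0.159).

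Target-AID was lower than ABEmax in 6 of 10 genes, against 19.4% of all genes: TMC8 by -1.28 ± 0.16 (adjusted p = 1.25e-08), ZNF467 by -1.13 ± 0.15 (adjusted p = 6.74e-08), LGALS1 by -0.95 ± 0.21 (adjusted p = 0.000364), C19orf57 by -0.71 ± 0.12 (adjusted p = 7.69e-06), MUC19 by -1.63 ± 0.27 (adjusted p = 4.56e-06) and EMP3 by -0.55 ± 0.15 (adjusted p = 0.00252). All 6 calls held in every alternative. The remaining 4 genes were called in neither direction, except that AMER2 was called higher without Target-AID RNF2 replicate 2 (0.46, adjusted p = 0.042, against 0.28 ± 0.20, adjusted p = 0.277, with all libraries).

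Between the adenine editors, ABEmax exceeded miniABEmax-V82G in 2 of 10 genes, against 3.51% of all genes: TMC8 by 0.64 ± 0.15 (adjusted p = 0.0052), which held in every alternative, and MUC19 by 0.94 ± 0.25 (adjusted p = 0.0174). The MUC19 call was lost without ABEmax HEKsite2 replicate 3, ABEmax RNF2 replicate 2, or miniABEmax-V82G HEKsite2 replicate 1 or 2 (0.77 to 0.90, adjusted p from 0.0503 to 0.0922). C19orf57 missed the threshold (0.37 ± 0.12, adjusted p = 0.0593) and passed it without ABEmax HEKsite2 replicate 2, ABEmax RNF2 replicate 2 or miniABEmax-V82G RNF2 replicate 3 (adjusted p from 0.0423 to 0.0485), and with only the groups compared in the fit (0.0488).

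SpACE was lower than miniABEmax-V82G in 3 of 10 genes, against 2.74% of all genes. ZNF467 was lower by -0.65 ± 0.15 (adjusted p = 0.0061), which no alternative removed. C19orf57 was lower by -0.50 ± 0.13 (adjusted p = 0.0143), which was lost without miniABEmax-V82G RNF2 replicate 3 (-0.44, adjusted p = 0.0571). TMC8 was lower by -0.54 ± 0.17 (adjusted p = 0.0411). Without miniABEmax-V82G HEKsite2 replicate 1, its highest library, the TMC8 difference was -0.32 (adjusted p = 0.266), and the call was also lost with DESeq2 (adjusted p = 0.0865) and without miniABEmax-V82G RNF2 replicate 2 or 3, SpACE HEKsite2 replicate 2 or 3, or SpACE RNF2 replicate 1 or 3 (adjusted p from 0.0515 to 0.145). MUC19 missed the threshold (-0.89 ± 0.31, adjusted p = 0.077) and passed it without miniABEmax-V82G HEKsite2 replicate 1 (-1.06, adjusted p = 0.0356) and with only the groups compared in the fit (0.0315).

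Target-AID was lower than miniABEmax-V82G in 5 of 10 genes, against 16% of all genes. TMC8 (-0.64 ± 0.17, adjusted p = 0.00229) and ZNF467 (-0.81 ± 0.15, adjusted p = 4.87e-05) kept the call in every alternative. EMP3 (-0.50 ± 0.14, adjusted p = 0.00515) lost it without miniABEmax-V82G RNF2 replicate 2 (-0.38, adjusted p = 0.0647), and LGALS1 (-0.65 ± 0.22, adjusted p = 0.02) without miniABEmax-V82G RNF2 replicate 3 or Target-AID RNF2 replicate 1 (adjusted p = 0.0518 and 0.0653). C19orf57 (-0.34 ± 0.12, adjusted p = 0.0276) lost it without miniABEmax-V82G HEKsite2 replicate 1 or 3, miniABEmax-V82G RNF2 replicate 3, Target-AID HEKsite2 replicate 1 or Target-AID RNF2 replicate 2 (adjusted p from 0.0608 to 0.0952). Leaving out Target-AID HEKsite2 replicate 2 brought in MUC19 (-1.03, adjusted p = 0.0108, against -0.69 ± 0.30, adjusted p = 0.0662) and IGFBP5 (-0.27, adjusted p = 0.0104, against -0.18 ± 0.08, adjusted p = 0.0975). Leaving out miniABEmax-V82G HEKsite2 replicate 1 brought in the same pair (-0.86, adjusted p = 0.0228, and -0.22, adjusted p = 0.0481), and leaving out Target-AID RNF2 replicate 2 brought in AMER2 (0.57, adjusted p = 0.0122, against 0.39 ± 0.20, adjusted p = 0.123).

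SpACE and Target-AID, the editors with a cytosine deaminase, differed in 0 of the 10 genes in edgeR's test, against 32% of all genes, with 2 of the 10 at an unadjusted p under 0.05. DESeq2 likewise called 0. Those 2 genes were AMER2 (-0.49 ± 0.20, adjusted p = 0.054) and EMP3 (0.34 ± 0.15, adjusted p = 0.066). AMER2 was called without SpACE HEKsite2 replicate 3, SpACE RNF2 replicate 3 or Target-AID RNF2 replicate 2 (adjusted p = 0.0447, 0.0357 and 0.0039), and EMP3 without Target-AID HEKsite2 replicate 3 (0.41, adjusted p = 0.0354). For TMC8 the difference was 0.10 ± 0.18 and for ZNF467 0.16 ± 0.17, which does not show that the 2 editors gave the same level. Over the 6 pairs the differences of EFNA3 ran from -0.22 to 0.09 (SE up to 0.11), those of IGFBP5 from -0.18 to 0.08 (SE up to 0.09) and those of SYT3 from -0.13 to 0.16 (SE up to 0.20).

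**Figure D3:**
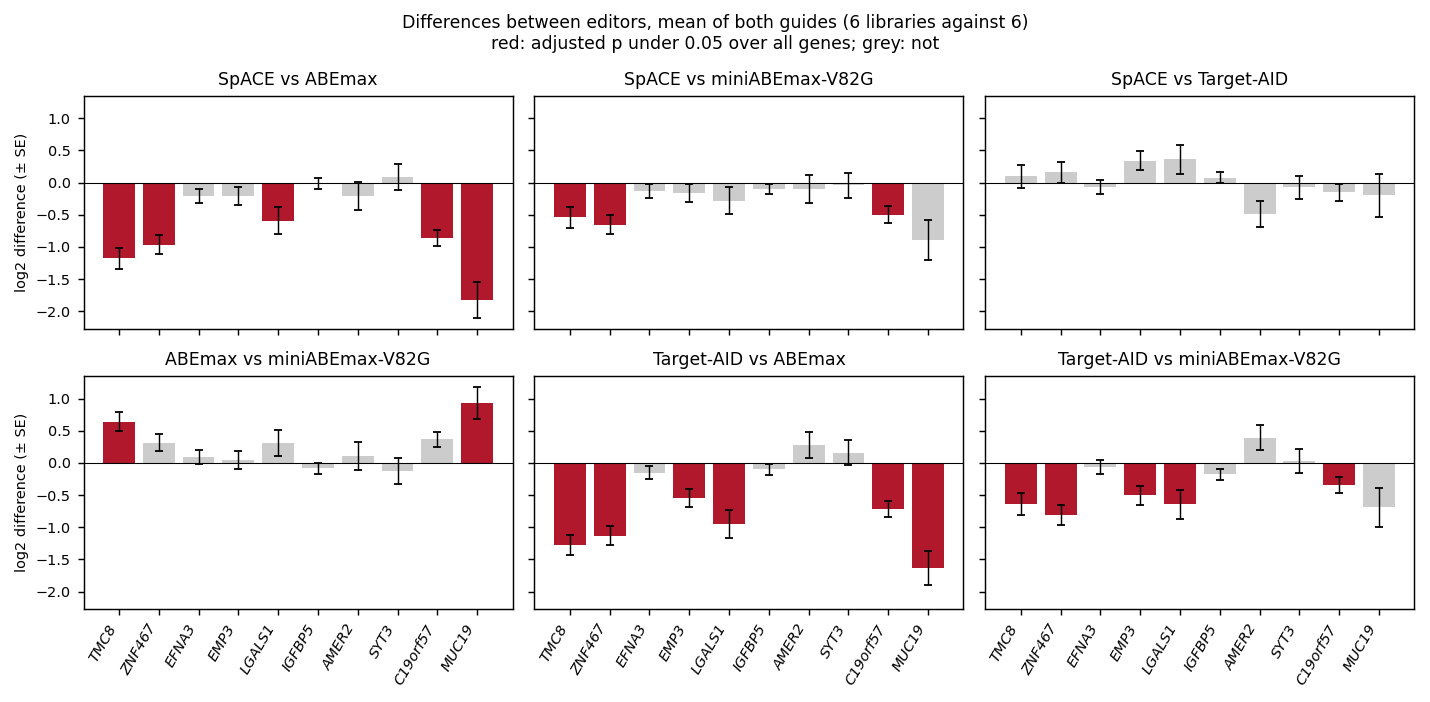
Log2 differences between pairs of editors (mean of both guides, 6 libraries against 6) with SE for the 10 genes, with red bars for adjusted p under 0.05 over all genes and grey bars for the rest. TMC8 and ZNF467 are lower in SpACE and Target-AID than in both adenine editors. The TMC8 call in SpACE against miniABEmax-V82G was lost with DESeq2 and without single libraries. EFNA3, IGFBP5, AMER2 and SYT3 stay grey in all 6 panels, and SpACE against Target-AID has no red bar.

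The guide was tested within each editor, a contrast that the choice of genes did not use, although it used the same libraries. Of these 40 tests 1 passed. In miniABEmax-V82G, LGALS1 was 2.96, 3.26 and 3.57 CPM with HEKsite2 and 1.503, 1.69 and 1.82 CPM with RNF2, ranges that did not overlap. This is a difference of -0.95 ± 0.29 (adjusted p = 0.0279) and 1 of 10 genes lower, against 5.26% of all genes. The call was lost with DESeq2 (adjusted p = 0.0534) and without any library of the comparison but miniABEmax-V82G HEKsite2 replicate 1 (replicates 2 and 3 with HEKsite2 and 1, 2 and 3 with RNF2, adjusted p from 0.062 to 0.102). A test of whether the guide difference of LGALS1 varied over the 4 editors gave an adjusted p of 0.281 in edgeR's quasi-likelihood test, and by it 0 of the 10 genes and 0.541% of all genes were called. It was added after the values were seen. In SpACE, ABEmax and Target-AID edgeR's test called 0 of the 10 genes for the guide, against 0.0411%, 2.26% and 0% of all genes. At an unadjusted p under 0.05 there were 0, 2 and 0 of the 10. In Target-AID, 0 of 14613 genes were called by edgeR and 0 by DESeq2, with 572 at an unadjusted p under 0.05. In nCas9, which was used to pick the genes, the RNF2 guide differed from HEKsite2 by -0.53 ± 0.12 in EFNA3, -0.41 ± 0.10 in IGFBP5, -0.40 ± 0.15 in ZNF467 and 1.15 ± 0.31 in MUC19, the last being 1.81 without nCas9 HEKsite2 replicate 3.

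Relatives of the 10 genes were counted from lists of their families, without the 10 themselves, and the counts are for the HEKsite2 guide where RNF2 is not named. Called shares over all genes were 19.6% higher and 18.8% lower in nCas9 with HEKsite2 against GFP, and 10.7% higher and 10.2% lower in SpACE against nCas9 with that guide. Of 20 ephrins and Eph receptors tested, 2 were higher and 5 lower in nCas9 than in GFP, and 4 were higher and 2 lower in SpACE than in nCas9. EFNA1, an ephrin like EFNA3, was higher in nCas9 than GFP by 1.58 ± 0.14 (adjusted p = 3.17e-11) and lower in SpACE than nCas9 by -1.14 ± 0.14 (adjusted p = 9.67e-08), with 1.37 ± 0.15 (adjusted p = 1.02e-09) and -1.20 ± 0.15 (adjusted p = 1.41e-07) for the RNF2 guide. It was 16.8 and 14.5 CPM in nCas9, 5.62 CPM in GFP and 6.11 to 9.40 CPM in the editors. The median of the list was -0.08 in nCas9 against GFP, and 0.0028 over all genes. Without GFP replicate 1 or 3 or nCas9 HEKsite2 replicate 3, 1 was higher in nCas9 in place of 2, and without SpACE HEKsite2 replicate 1 or 2 or nCas9 HEKsite2 replicate 3, 1 was lower in SpACE.

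In the TMC list 1 of 8 tested genes was higher and 1 lower in nCas9 with HEKsite2 than in GFP. The higher one was TMC6, the partner of TMC8, by 0.48 ± 0.17 (adjusted p = 0.0197), with 0.36 ± 0.17 (adjusted p = 0.0816) for RNF2. Without nCas9 HEKsite2 replicate 2, 0 of the list were called higher, and without nCas9 HEKsite2 replicate 3 or GFP replicate 3, 0 were called lower. TMC6 in SpACE differed from nCas9 by -0.20 ± 0.16 (adjusted p = 0.438). Of the synaptotagmin list, 1 of 17 was higher and 0 lower in nCas9: SYT11, by 1.48 ± 0.19 (adjusted p = 3.25e-08), and it was lower in SpACE by -0.52 ± 0.17 (adjusted p = 0.0214), a call not made with RNF2 (-0.41 ± 0.16, adjusted p = 0.0819). Without GFP replicate 2 the count higher in nCas9 was 2. Of the 15 tested partners of BRCA2 and meiotic recombination, 3 were higher and 3 lower in nCas9 than in GFP. PSMC3IP, a cofactor of the recombinase DMC1, was higher by 0.92 ± 0.11 (adjusted p = 3.27e-08).

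In the list of AMER genes and the beta-catenin destruction complex, 0 of 14 were higher and 7 lower in nCas9 with HEKsite2 than in GFP, and 5 were higher and 0 lower in SpACE than in nCas9. LRP6, a Wnt coreceptor, was lower in nCas9 by -0.45 ± 0.08 (adjusted p = 7.16e-06), and AXIN1, a scaffold of that complex, was higher in SpACE by 0.30 ± 0.08 (adjusted p = 0.00377). The count lower in nCas9 was 4 without nCas9 HEKsite2 replicate 1 or 2 or GFP replicate 2 or 3, and the count higher in SpACE was 3 without nCas9 HEKsite2 replicate 2. In the insulin-like growth factor list 1 of 13 was higher and 4 lower in nCas9 (2 lower without nCas9 HEKsite2 replicate 1 or GFP replicate 3). IRS4, an adaptor of insulin receptor signalling, was lower by -0.92 ± 0.09 (adjusted p = 5.93e-11) and then higher in SpACE than in nCas9 by 0.53 ± 0.09 (adjusted p = 1.7e-05), the opposite of IGFBP5. Of 6 genes of the PMP22 family 0 were higher and 4 lower in nCas9 than in GFP, with CLDND1 at -0.26 ± 0.07 (adjusted p = 0.00181), and 0 of 6 were called in SpACE against nCas9 (1 higher without SpACE HEKsite2 replicate 1). TMEM47 was -0.27 ± 0.08 (adjusted p = 0.00584) in nCas9 against GFP.

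Galectins gave 0 of 4 higher and 1 lower in nCas9, LGALS8 at -0.59 ± 0.19 (adjusted p = 0.0104; 0 lower without nCas9 HEKsite2 replicate 1 or GFP replicate 3, 1 higher without nCas9 HEKsite2 replicate 3 or GFP replicate 2), and in SpACE 0 of 4 were called, with LGALS3 at 0.52 ± 0.21 (adjusted p = 0.073). Mucins gave 0 of 3 higher and 1 lower, CD164 at -0.15 ± 0.06 (adjusted p = 0.0381; 0 lower without GFP replicate 1 or 2 or nCas9 HEKsite2 replicate 2 or 3). Of 408 other ZNF genes, 67 were higher and 103 lower in nCas9 than in GFP, and 48 were higher and 29 lower in SpACE than in nCas9. The last counts were 31 higher without nCas9 HEKsite2 replicate 1, and 16 to 19 lower without nCas9 HEKsite2 replicate 2 or any SpACE HEKsite2 library. ZNF503 was lower in nCas9 by -1.18 ± 0.09 (adjusted p = 2.39e-13) and ZNF746 higher in SpACE by 0.81 ± 0.08 (adjusted p = 4.68e-10). In SpACE against nCas9 with HEKsite2, SLC30A1 of the TMC list, a zinc exporter, was lower by -0.33 ± 0.10 (adjusted p = 0.02), ESYT1, an extended synaptotagmin, by -0.22 ± 0.06 (adjusted p = 0.0043) and CD164 by -0.25 ± 0.06 (adjusted p = 0.00191). With RNF2 SLC30A1 was lower too (-0.47 ± 0.10, adjusted p = 0.00169), while ESYT1 (0.09 ± 0.06, adjusted p = 0.347) and CD164 (-0.05 ± 0.06, adjusted p = 0.597) did not pass and ESYT1 had the opposite sign.

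With the RNF2 guide the called shares over all genes were 21% higher and 20.5% lower in nCas9 against GFP, and 8.03% higher and 6.68% lower in SpACE against nCas9. The AMER list gave 1 higher and 5 lower in nCas9 and 3 higher and 0 lower in SpACE, and the ephrin list 3 higher and 4 lower in nCas9 and 1 higher and 1 lower in SpACE. In nCas9 against GFP the partners of BRCA2 gave 5 higher and 6 lower, the TMC list 1 and 1, the synaptotagmins 2 and 2, the insulin-like growth factor list 1 and 2, the PMP22 family 0 and 2, the galectins 0 and 0, the mucins 1 and 1 and the other ZNF genes 85 and 98. In SpACE 28 of the ZNF genes were higher and 31 lower, and 0 galectins and 0 genes of the PMP22 family were called. Counts thus differed between the guides, a difference that was not tested. Leaving out GFP replicate 3 left 3 partners of BRCA2 higher, and 4 synaptotagmins higher and 1 lower. Leaving out GFP replicate 2 or 3 or nCas9 RNF2 replicate 3 left 1 lower in the PMP22 family, and without GFP replicate 2 there was 1 galectin higher. In the TMC list 2 were higher without GFP replicate 1 or nCas9 RNF2 replicate 1 and 0 without GFP replicate 2, and 0 were lower without GFP replicate 2 or 3 or any nCas9 RNF2 library. In the AMER list 0 were higher in nCas9 without nCas9 RNF2 replicate 3, 1 was higher in SpACE without replicate 1 or 3 of nCas9 RNF2 or of SpACE RNF2, and 1 was lower without nCas9 RNF2 replicate 1. Of the ephrin list 0 were higher in SpACE without nCas9 RNF2 replicate 2 or 3 or SpACE RNF2 replicate 2, and 2 were lower without nCas9 RNF2 replicate 3 or SpACE RNF2 replicate 2. Of the ZNF genes 17 and 18 were higher in SpACE without SpACE RNF2 replicate 2 and nCas9 RNF2 replicate 2, and 19 and 14 lower without SpACE RNF2 replicate 1 and nCas9 RNF2 replicate 3. Among the single genes named with HEKsite2, PSMC3IP, LRP6, IRS4, CLDND1, TMEM47 and ZNF503 in nCas9 against GFP and AXIN1, IRS4 and ZNF746 in SpACE against nCas9 were also called in the same direction with RNF2. LGALS8 was not, at -0.26 ± 0.18 (adjusted p = 0.238).

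Genes with the profile most like the mean of the 10, by Pearson correlation of log2 CPM over the 11 group means among 12364 genes ranked, were NLGN2, a synaptic adhesion gene (0.98), TMEM38A (0.97), FOXO4 (0.97), EFNA1 (0.97), LZTS2 (0.96) and RARG (0.95). FOXO4, a forkhead transcription factor, was 28.6 and 25.7 CPM in nCas9 (HEKsite2 and RNF2), 17.9 CPM in GFP and 15 to 20.2 CPM in the editors. TMEM38A, an ion channel of the endoplasmic reticulum, was 13.9 and 13.4 CPM in nCas9, 7.41 CPM in GFP and 6.22 to 10.4 CPM in the editors. RARG, a retinoic acid receptor, was 17.7 and 14.5 CPM in nCas9, 10.4 CPM in GFP and 8.85 to 12.7 CPM in the editors, highest in ABEmax. Single genes had as their nearest match TBC1D10B for TMC8 (0.96), EFNA1 for ZNF467 (0.97), GDF11 for both EFNA3 (0.96) and IGFBP5 (0.98), RBM8A for EMP3 (0.99) and DNAJC8 for LGALS1 (0.97). AMER2 was matched by KCNK5 (0.98), SYT3 by PAQR4 (0.95), C19orf57 by NLGN2 (0.96) and MUC19 by ZNF223 (0.92). GDF11 was 38.7 and 35.5 CPM in nCas9, 28.8 CPM in GFP and 21.2 to 24.3 CPM in the editors, and so had the order of IGFBP5. KCNK5, a potassium channel, was 9.21 CPM in GFP and 17.9 to 25.2 CPM in all other groups, like AMER2. These correlations describe 11 means that share libraries, and they were found by ranking all genes.

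Per kilobase of exons the 10 genes were low to middling. Mean CPM per kilobase was 5.35 in EFNA3, 4.6 in IGFBP5, 2.83 in EMP3, 2.54 in TMC8, 2.53 in LGALS1, 2.41 in ZNF467, 1.99 in C19orf57, 0.66 in SYT3, 0.24 in AMER2 and 0.097 in MUC19. EFNA3 stood at the 50.3rd percentile of tested genes on this scale and MUC19 at the 0.983rd. The genes lie on 8 chromosomes, with EMP3, SYT3 and C19orf57 on chromosome 19, which holds 6.91% of the tested genes. By GENCODE 29, TMC6 overlaps TMC8 on the other strand and shares 231 exonic bases with it, CC2D1A shares 252 with C19orf57, and CCDC114 shares 217 with EMP3. The strand setting of the counting is not given in the sources used here, so reads of these partners cannot be told apart from the table alone. CC2D1A was higher in nCas9 than in GFP by 0.23 ± 0.08 (adjusted p = 0.0248) with HEKsite2 and by 0.40 ± 0.08 (adjusted p = 0.000124) with RNF2. In SpACE against nCas9 it did not pass the test with HEKsite2 (0.14 ± 0.08, adjusted p = 0.229) or RNF2 (adjusted p = 0.982). Beside ZNF467, SSPO was higher in nCas9 by 1.18 ± 0.39 (adjusted p = 0.0138) and lower in SpACE by -1.48 ± 0.41 (adjusted p = 0.00849) with HEKsite2, while with RNF2 neither passed (adjusted p = 0.0998 and 0.281). NOL12, beside LGALS1, was higher in nCas9 by 0.30 ± 0.09 (adjusted p = 0.00755).

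Most of the 10 genes have transcripts rich in G and C. The GC content of the longest transcript was 67.5% in ZNF467, 59.5 to 61.4% in TMC8, EFNA3, EMP3, LGALS1, SYT3 and C19orf57, 51.9% in IGFBP5, 48.5% in MUC19 and 42.3% in AMER2, and 9 of 10 were above the median of 48.2% over the 13834 tested genes with a value. GC content moved with the difference of nCas9 from GFP over all genes. With HEKsite2 the median log2 difference went from -0.13 in the lowest of 10 bins of genes by GC content to 0.24 in the highest, and in SpACE against nCas9 it went from 0.04 to -0.12. In bin 9, where 6 of the 10 genes lie, the HEKsite2 values at the 10th and 90th percentiles of the other genes were -0.28 and 0.71 in nCas9 against GFP and -0.44 and 0.33 in SpACE against nCas9. All 6 of these genes were outside both ranges, as were ZNF467 and IGFBP5 in their own bins, which restates how they were picked. With RNF2, EFNA3 (0.74) and SYT3 (0.59) lay inside the range of bin 9 in nCas9 against GFP, whose 90th percentile was 0.75, and IGFBP5 (0.43) inside that of bin 7, at 0.62. The other 4 genes of bin 9 and ZNF467 were above their ranges there, and in SpACE against nCas9 with RNF2 all 8 genes were below theirs. With HEKsite2, AMER2 (bin 3) was above its range in nCas9 against GFP (2.34) and in SpACE against nCas9 (0.42). MUC19 (bin 6) was inside its range in the first (0.16) and below it in the second (-1.07). With RNF2, both were above their ranges in nCas9 against GFP. In SpACE against nCas9 with RNF2, AMER2 was inside its range (-0.11) and MUC19 below it (-2.61). The part of GC content in the results was not tested.

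**Figure D4:**
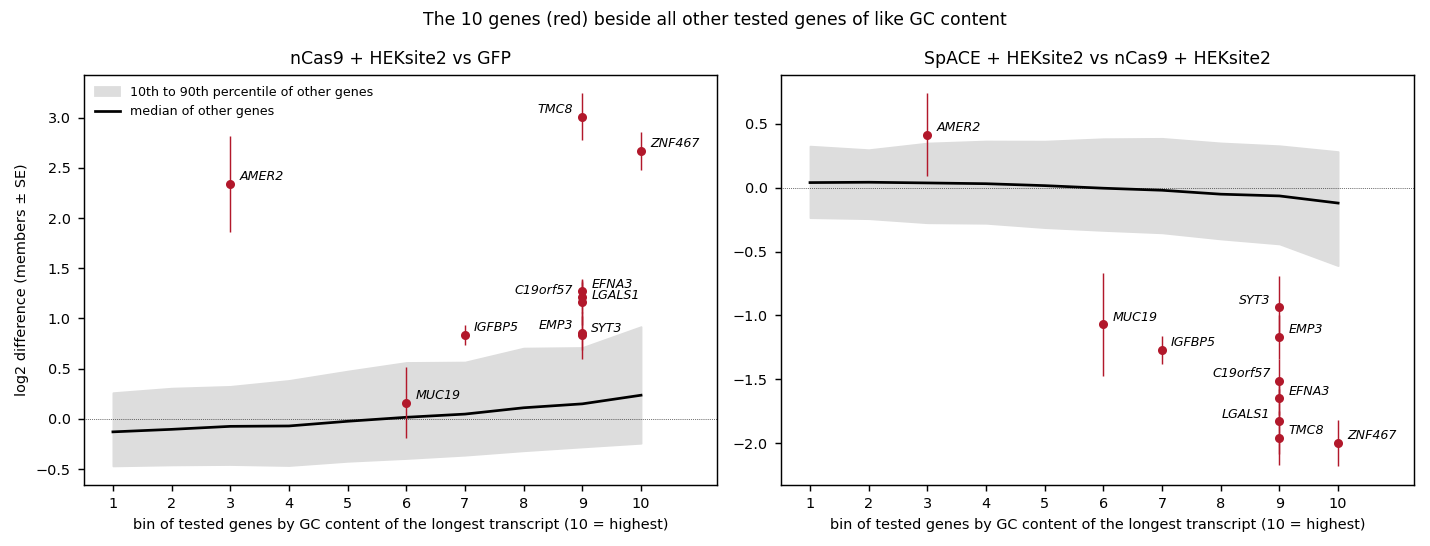
Log2 difference of nCas9 from GFP (left) and of SpACE from nCas9 (right), both with the HEKsite2 guide, against the bin of tested genes by GC content of the longest transcript (10 bins, bin 10 highest), where the line is the median and the band the 10th to 90th percentile of the other genes and the red points are the 10 genes with SE. The line climbs from -0.13 to 0.24 on the left and falls from 0.04 to -0.12 on the right, and TMC8 (3.01 and -1.96) and ZNF467 (2.67 and -2.00) lie well outside the band in both.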

How the data were processed

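RNA of 33 libraries of HEK293T cells (11 groups of 3, by construct and guide) was sequenced after a stranded total RNA preparation, per the labels' protocols. The authors deposited raw read counts per gene symbol. The submitters' processing notes name STAR, GATK 3.8.1, Picard 2.7 and GRCh38 (hg38) without roles. Counter, strand setting and annotation were not given in the sources used here. Columns were matched to samples by construct, guide and replicate number. The columns matched to SpACE are headed SpACE.UGI.

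Genes were filtered with filterByExpr (14613 of 26475 kept), scaled by TMM and fitted in edgeR 4.0.16 (R 4.3.3, limma 3.58.1) with 1 mean per group and 22 residual degrees of freedom. Quasi-likelihood F-tests were two-sided, with Benjamini-Hochberg adjustment over all tested genes and a threshold of 0.05. SE is the log2 difference over the square root of F. The procedure was tested on simulated data. Alternatives were RLE scaling, no filter, a replicate block, a fit of only the compared groups, the DESeq2 1.42.0 Wald test, and the omission of each library in turn. Precision is limited by 3 libraries a group and by counts as low as 1 per library.

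The genes, family lists and tests were chosen with earlier results of these data known. Named besides the 10 genes are the 6 most like their mean profile, the single most alike gene of each, from each family list the gene with the smallest p in nCas9 against GFP and in SpACE against nCas9 (both with HEKsite2), and neighbours that overlap or start within 10 kb. Replicate numbers were not used to pair the libraries, and a check of this is given among the alternatives. Positions are from GENCODE 29 and promoters from RefSeq (GRCh38.p14). Tables and figures were made in Python 3.11.15 (pandas 2.3.3, matplotlib 3.10.9).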

Additional observations from a re-analysis of the deposited data

How the results depend on the processing

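No difference reversed sign past a threshold. Without the filter on low counts the guide called 68 genes in SpACE (6 with it) and 8 in Target-AID (0 with it), and with only the groups compared in the fit it called 11 in SpACE and 2693 in miniABEmax-V82G (1452 with all groups). The cause was not tested. Leaving out 1 library at a time, counts of genes called ran from 469 to 986 for SpACE against miniABEmax-V82G (869 with all), lowest without SpACE RNF2 replicate 1, and from 1432 to 1768 for SpACE against nCas9 with RNF2 (2150 with all), lowest without nCas9 RNF2 replicate 3. For the guide they ran from 1 to 4 in SpACE, 181 to 301 in ABEmax (330 with all), 496 to 1223 in miniABEmax-V82G and 0 to 2 in Target-AID. These fits have fewer libraries.

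Same-numbered libraries of different groups had deviations that correlated between -0.105 and 0.215 within a guide (14 of 60 pairs over 0.1) and between -0.198 and 0.199 otherwise (10 of 105). The numbers were not used to pair libraries. Libraries with different numbers were not compared in this way, so the check cannot show whether the numbers pair them. With the replicate block 3326 genes were called for SpACE against ABEmax (3112 without it), and no count over all genes moved by over 1.5 times. Among the family lists with RNF2, it left 0 of the TMC list lower in nCas9 against GFP (1 without it), and in SpACE against nCas9 it brought 1 AMER list gene and 1 synaptotagmin lower (0 without it). Among the 10 genes the block added AMER2 in SpACE against Target-AID (adjusted p = 0.0339), C19orf57 in ABEmax against miniABEmax-V82G (0.0333) and MUC19 in Target-AID against miniABEmax-V82G (0.047), and removed none.

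Without the filter MUC19 was also called for the guide in ABEmax (adjusted p = 0.0355) and in SpACE against miniABEmax-V82G (0.00755), AMER2 in SpACE against Target-AID (0.044), and MUC19 (0.00924) and IGFBP5 (0.044) in Target-AID against miniABEmax-V82G. With DESeq2 MUC19 was called in the last pair (0.0452), and 18 of the 408 other ZNF genes were higher and 20 lower in SpACE than in nCas9 with RNF2, against 28 and 31 in edgeR's test. Genes at few counts, such as AMER2 in GFP (11 counts in 3 libraries) and MUC19, are limited by depth.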
